A study of Homo sapiens with 4 samples.

Results

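The regions described here are stretches of open chromatin in gene deserts that were called in pancreatic progenitors cultured with I-BET151 and not in those cultured with DMSO. They numbered 4257 of 164301 merged regions. A gene desert region was a merged region whose midpoint lay outside every protein-coding gene body and more than 250 kb from the nearest protein-coding gene start in GENCODE release 44 (hg38). A region counted as gained where both I-BET151 peak lists and neither DMSO list held a peak overlapping it by at least 1 bp. The members were therefore selected on the presence of peaks in these 4 lists, and their presence or absence in a list is a description and not a test. Of all merged regions, 27885 were gained by the same rule, a share of 17.0%.

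The study asked how the BET inhibitor changed chromatin accessibility in progenitors kept in expansion medium. All 4 libraries came from pancreatic progenitors derived from the human embryonic stem cell line MEL1, an established line, so that both groups share 1 genetic background. The study's methods name the line MEL1 INS GFP/W, in which 1 copy of the insulin gene carries a GFP reporter. All cells were kept in EF6, a DMEM medium with B27, EGF, bFGF and 616452, an inhibitor of TGF-β signalling. It was supplied for 7 days with DMSO, the solvent control, or with 1 μM I-BET151, in 2 libraries per group made from 50000 cells each. The labels do not say whether the 2 libraries of a group came from separate cultures, so the spread between them may be technical.

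ATAC-seq uses the Tn5 transposase to cut and tag accessible DNA, so that peaks of reads mark promoters, enhancers and insulators from which nucleosomes have been displaced. I-BET151 occupies the acetyl-lysine pocket of the bromodomains of the BET proteins, which read acetylated histones at enhancers and promoters and promote transcription. Gene deserts are long gaps between protein-coding genes. They are poor in GC, often flank genes for developmental transcription factors or for neuronal adhesion molecules, and hold distant enhancers, sites of the insulator protein CTCF and long non-coding RNA genes (lncRNAs). In pancreatic progenitors, FOXA and GATA factors, HNF6 (the product of ONECUT1), SOX9 and NKX6-1 bind distant enhancers.

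The lists differed in depth and in number of peaks. The DMSO lists held 82568 and 38295 peaks (replicates 1 and 2) and the I-BET151 lists 84995 and 111324. Their background corresponded to 38.7 and 36.6 M reads with DMSO but only 12.5 and 16.0 M reads with I-BET151. The weakest peak of a list had a pileup, the number of extended reads over the summit, of 10 and 11 reads with DMSO and of 5 and 6 reads with I-BET151. Per M reads that was 0.259 and 0.301 with DMSO and 0.401 and 0.375 with I-BET151. Peaks within 1 kb of the gene start were listed for 7 and 6 of 9 pancreatic progenitor markers with DMSO and for 9 of 9 in both I-BET151 lists. PDX1 and GATA4 were missing from both DMSO lists and ONECUT1 from that of replicate 2. Of the 4 pluripotency genes, only DPPA4 had such a peak, in I-BET151 replicate 2. Endocrine markers had a promoter peak for 1 and 0 of 5 genes with DMSO and 2 and 1 with I-BET151. The counts were 1 and 1 against 1 and 2 of 3 for liver, and 1 and 2 against 2 and 2 of 3 for mesenchyme. The part of these differences in the results below was not tested.

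The strongest members show what such a region looks like. They are ranked by the lower of their 2 fold enrichments (pileup over local background, each plus 1 read, at the summit). The sequences below are the 201 bases centred on the summit of the 4 strongest, on the plus strand of hg38, each named after the protein-coding genes on either side. They are printed because they carried the highest enrichment, and capitals mark exact matches, on either strand, to the short motifs described further on. The HS3ST5-FRK sequence is chr6:115551606-115551806 and holds a FOXA match followed by a GATA match. The CDH7-CDH19 sequence is chr18:66202404-66202604 and holds an NKX6 match. The ZNF254-UQCRFS1 sequence is chr19:28705147-28705347 and holds FOXA, TEAD and SOX matches from left to right. The METTL15-KCNA4 sequence is chr11:29159725-29159925 and holds none.
HS3ST5-FRK: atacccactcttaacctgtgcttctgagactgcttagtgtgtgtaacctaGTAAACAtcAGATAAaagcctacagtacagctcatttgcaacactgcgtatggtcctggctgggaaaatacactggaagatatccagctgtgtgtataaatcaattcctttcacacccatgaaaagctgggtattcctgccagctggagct
CDH7-CDH19: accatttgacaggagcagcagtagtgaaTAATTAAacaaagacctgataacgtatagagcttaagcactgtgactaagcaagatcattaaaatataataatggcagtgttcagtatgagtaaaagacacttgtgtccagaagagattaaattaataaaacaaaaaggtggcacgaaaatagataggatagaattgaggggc
ZNF254-UQCRFS1: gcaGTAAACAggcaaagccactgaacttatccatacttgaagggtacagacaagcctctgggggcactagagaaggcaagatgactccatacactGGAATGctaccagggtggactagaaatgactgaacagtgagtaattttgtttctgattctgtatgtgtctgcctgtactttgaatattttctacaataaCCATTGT
METTL15-KCNA4: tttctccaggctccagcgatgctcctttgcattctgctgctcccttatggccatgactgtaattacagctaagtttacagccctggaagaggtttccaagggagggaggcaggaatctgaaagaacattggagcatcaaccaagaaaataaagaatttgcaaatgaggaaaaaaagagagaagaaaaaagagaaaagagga

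The region between HS3ST5 and FRK (chr6:115551454-115551928) had a fold enrichment of 16.8 in I-BET151 replicate 1 and of 17.0 in replicate 2, from pileups of 37 and 54 reads. It lies 509200 bp from the start of FRK, which encodes a Src-related kinase, and ranked at the 99.7th and 99.2nd percentile of the lists. The region between CDH7 and CDH19, which encode cadherins (chr18:66202254-66202713), had fold enrichments of 15.2 and 15.5. The region between ZNF254 and UQCRFS1 (chr19:28704648-28705467) had 15.2 and 16.7 and lies within 2 lncRNA genes without names, ENSG00000283403 and ENSG00000290606. Each of these values was close to that of the other I-BET151 library. By the rule that selected the members, neither DMSO list held a peak at any of these regions.

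The next members in rank lay beside genes of several kinds. The region between METTL15 and KCNA4 (chr11:29159397-29160175) had fold enrichments of 14.8 and 16.4, and that between BCKDHB and TENT5A (chr6:80404943-80405465) had 14.5 and 19.0. Between STIM2 and PCDH7, the latter a protocadherin gene (chr4:27684457-27685039), the values were 14.5 and 15.3. Between ZSWIM6 and KIF2A (chr5:61768727-61769173) they were 14.4 and 14.8, inside the lncRNA gene C5orf64. Of these, the region beside TENT5A differed most between the libraries, and the others were within 2 units of each other. Of the rest of the 10 strongest, one lay between the cadherin genes CDH10 and CDH9 (chr5:25544690-25545153, 14.0 and 17.6) and another between GBE1 and ROBO1, an axon guidance receptor gene (chr3:80556782-80557340, 13.9 and 14.9).

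Most members were far weaker than these 10. The fold enrichment of the 4257 members had a median of 5.56 in I-BET151 replicate 1, with a range of 2.92 to 16.8, and of 6.36 in replicate 2, with a range of 2.78 to 19.0. The median pileup was 11 reads (5 to 45) in replicate 1 and 17 reads (6 to 67) in replicate 2. A member thus typically rested on few reads, and a pileup of that size carries a large counting error. Per M reads the medians were 0.883 and 1.06. Both lists gave a fold enrichment of at least 5 to 2396 members and of at least 10 to 112. In 2693 members the value was higher in replicate 2. Across the 4257 members, which share the 2 libraries and their depths, the fold enrichments of both lists had a Spearman rho of 0.565, and their log2 values a Pearson r of 0.597. Members ranked in the middle of their lists, at a median percentile of 50.2 in replicate 1 and 53.8 in replicate 2. The 1672 gene desert regions called in all 4 lists ranked higher, at median percentiles of 77.0 and 87.7, and the 23628 gained regions outside gene deserts slightly lower, at 47.2 and 48.5. A median length of 476 bp was close to that of gained regions elsewhere (485 bp) and shorter than that of gene desert regions called in all 4 lists (706 bp).

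**Figure D1:**
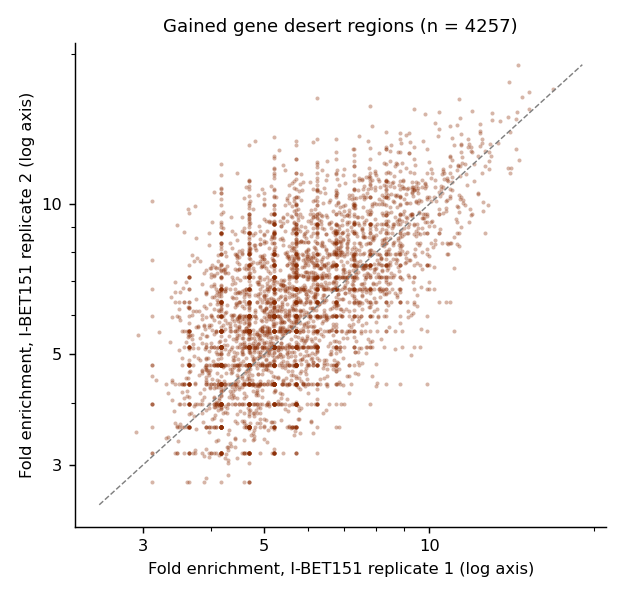
Fold enrichment of each of the 4257 gained gene desert regions in I-BET151 replicate 1 (x) and replicate 2 (y), both on log axes, with 1 point per region and a dashed line at equal values. Points lie on both sides of the line, 2693 of them above it, and the rows and columns of points at low values come from small whole numbers of reads.

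The absence of a DMSO peak depends on how high a DMSO pileup had to be. The median pileup of the members per M reads was 3.42 times that of the weakest peak of the DMSO list in replicate 1 and 3.54 times in replicate 2. Regions with a peak in every list were also higher with I-BET151. In the 1672 gene desert regions called in all 4 lists, the pileup per M reads was higher with I-BET151 by a median of 1.43 (log2) in replicate 1 and of 2.29 in replicate 2, and over all regions called in all 4 lists by 1.57 and 2.25. Dividing the members' pileups by the gene desert medians gives the DMSO pileup they would have had with the same difference as those regions, a median of 12.7 reads in replicate 1 and 7.93 reads in replicate 2. At that value, 3292 members (77.3%) reach the weakest pileup of the DMSO replicate 1 list, 1043 (24.5%) that of replicate 2 and 988 both. This takes 1 difference for all regions and the weakest pileup anywhere in a list, which is not the limit at each region. A gain of peaks at the members and a difference in signal over background between the libraries cannot be told apart from these lists.

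Gains outnumbered losses in gene deserts. Of 19988 gene desert regions, the 4257 members made up 21.3%, and the 315 regions called in both DMSO lists and in no I-BET151 list made up 1.58%. The shares over all merged regions were 17.0% gained and 2.37% lost. Outside gene deserts 16.4% of regions were gained. Members were 93.1% of the gene desert regions that were gained or lost. The lost number depended on the need for a peak in both DMSO lists. With 1 DMSO library left out, 1 list sufficed for a loss while a gain still needed 2, so the numbers are not alike. Without DMSO replicate 2 there were 3050 lost gene desert regions (15.5%) beside 4414 gained. Outside gene deserts 21.6% were then lost and 17.7% gained. Without DMSO replicate 1 there were 705 lost (4.08%) beside 5180 gained, with 4.63% lost and 26.4% gained outside gene deserts. Of all gained regions, 15.3% lay in gene deserts. Most other gene desert regions were seen in a single library, 5347 only in I-BET151 replicate 2, 3014 only in I-BET151 replicate 1, 2695 only in DMSO replicate 1 and 388 only in DMSO replicate 2. A further 923 would have been members but for a peak in DMSO replicate 1, and 155 but for one in DMSO replicate 2. Within same-numbered libraries, 7436 gene desert regions were listed with I-BET151 alone in replicate 1 and 4070 with DMSO alone, against 11284 and 740 in replicate 2. The excess was thus present in both, and much larger in replicate 2, where the DMSO list was shortest. With the 38295 strongest peaks of each list, 796 gene desert regions were gained and 366 lost, or 12.0% and 5.52% of 6628, while 8.87% were gained and 5.89% lost outside gene deserts. Lists of equal length thus gave far fewer members, with the gained share of gene desert regions still above that of other regions. With peaks of a −log10 p of at least 10 the gained shares were closer, 24.5% in gene deserts and 23.2% elsewhere, and the lost share was higher in gene deserts, at 0.591% against 0.228%.

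The gained share was higher in regions farther from protein-coding genes. Outside gene bodies it was 12.2% of the 3997 regions within 1 kb of a gene start, 15.2% at 1 to 10 kb and 17.5% at 100 to 250 kb. In gene deserts it was 20.0% of 10527 regions at 250 to 500 kb, 22.6% of 6565 at 500 kb to 1 Mb and 23.0% of 2896 beyond 1 Mb. The 95% Wilson intervals of the last 3 shares, 19.3 to 20.8%, 21.6 to 23.6% and 21.5 to 24.6%, cover counting error only. The last 2 overlap. Regions called in all 4 lists went the other way, from 61.1% within 1 kb of a gene start to 7.73% beyond 1 Mb. The members lay a median of 506337 bp from a gene start. The 3 farthest lay in 1 gap, between PCDH7 and ARAP2 on chromosome 4, at 2705571 bp (chr4:33538727-33539160), 2649391 bp (chr4:33369530-33369991) and 2618334 bp (chr4:33625869-33626492). Their fold enrichments in replicates 1 and 2 were 4.16 and 4.32, 9.88 and 11.5, and 6.47 and 7.49. They thus covered both the weak and the strong end of the members.

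The limit of 250 kb separated regions that looked alike. Just inside it were members 250034 bp from DEPDC1 (fold enrichments 5.20 and 5.17), 250066 bp from SOX9 (4.78 and 3.38) and 250083 bp from YTHDF3 (7.80 and 8.34). Just outside were gained regions 249949 bp from LUZP2 (8.84 and 7.95), 249876 bp from NRG1 (4.04 and 3.18) and 249810 bp from TMEM64 (5.56 and 6.91). The member near SOX9, a transcription factor of pancreatic progenitors, lies in the lncRNA gene LINC00511 (chr17:72370854-72371318).

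**Figure D2:**
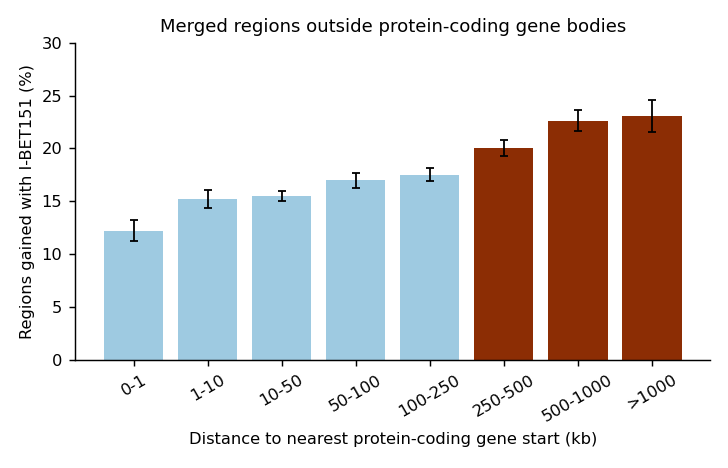
Share of merged regions outside protein-coding gene bodies that were gained with I-BET151 (y, in percent) by distance from the nearest protein-coding gene start (x, in kb). Dark bars are the gene desert regions, and error bars are 95% Wilson intervals for counting error. The share was 12.2% in the nearest class and 23.0% in the farthest.

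The share of each library's own peaks that lay in gene deserts can be given for every library. All members are peaks of both I-BET151 lists and none of either DMSO list, so this share and the next ones rest in part on the rule and are given as descriptions, with no test. The share of peaks was 8.42% and 7.72% in DMSO replicates 1 and 2 and 12.3% and 12.1% in I-BET151 replicates 1 and 2. Both I-BET151 values were above both DMSO values. The means were 8.07% ± 0.495 (SD, n = 2) and 12.2% ± 0.0872 (SD, n = 2), a difference of 4.14 percentage points. The difference was 3.85 within replicate 1 and 4.43 within replicate 2. Gene desert peaks were also poorer in GC with I-BET151. The median GC content within 100 bp of their summits was 47.3% and 43.8% with DMSO and 42.8% and 41.8% with I-BET151, with no overlap between groups and a difference of −3.23 percentage points. Among peaks with a −log10 p of at least 10 the difference was −0.746 and the groups overlapped. The CTCF consensus lay within 100 bp of the summit of 0.950% and 1.15% of gene desert peaks with DMSO, and of 2.02% and 1.34% with I-BET151. The groups did not overlap, but the difference was 1.07 percentage points within replicate 1 and 0.188 within replicate 2, around a mean of 0.631. In a window of 50 bp on either side the groups overlapped, with a mean difference of 0.615. With equal numbers of peaks the difference in the share of peaks in gene deserts was 1.16 points. The HNF6 motif was in 3.45% and 3.99% of gene desert peaks with DMSO and in 7.66% and 6.75% with I-BET151. Its share was not counted per library outside gene deserts, so this difference cannot be called particular to them. Outside gene deserts the CTCF share was 1.41% and 1.45% against 3.41% and 2.40%, so the groups were also apart there. The median GC of peaks outside gene deserts was 52.7% and 53.7% with DMSO and 49.8% and 47.3% with I-BET151. The lower GC was thus not particular to gene desert peaks.

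**Figure D3:**
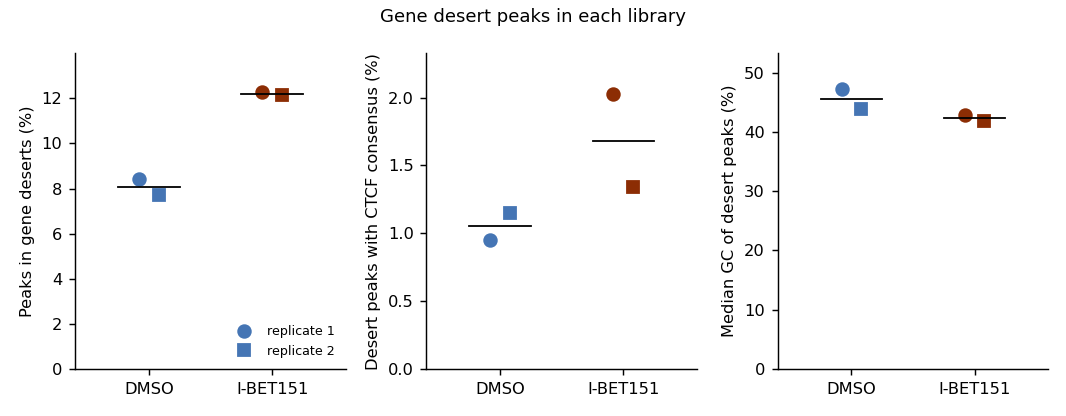
Each panel plots 1 value per library, circles for replicate 1 and squares for replicate 2, blue for DMSO and brown for I-BET151, with a line at the mean of each group. From left to right the y axes are the percent of peaks in gene deserts (8.42 and 7.72 against 12.3 and 12.1), the percent of gene desert peaks with the CTCF consensus (0.950 and 1.15 against 2.02 and 1.34), and the median GC percent of gene desert peaks (47.3 and 43.8 against 42.8 and 41.8).

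The members themselves were poor in GC, with a median of 41.8% within 100 bp of the summit. Gained regions elsewhere had 46.3%, gene desert regions called in all 4 lists 43.3%, and the 315 lost gene desert regions 52.7%. The gene deserts as a whole, 645 Mb or 22.0% of the sequenced bases, had a GC content of 37.6%. No CpG was found in 27.8% of the members, close to the 28.4% of other gene desert regions, against 23.7% of gene desert regions called in all 4 lists and 17.2% of gained regions elsewhere.

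Short consensus letters of transcription factors were counted within 100 bp of the summit of each region's most enriched peak, on both strands and as exact matches. A match describes the sequence and is not evidence that the factor is bound. The letters searched were AGATAA for GATA factors, TGTTTAC for FOXA, ATCAATA for HNF6, ACAATGG for SOX, TTAATTA for NKX6, TGANTCA for AP-1 and GGAATG for TEAD, besides the longer CTCF and HNF1 consensus sequences. The HNF1 consensus can contain the NKX6 letters. Each motif was also counted with its letters reversed, which keeps their base composition. Of the members, 1834 (43.1%) held none of the 9 motifs, and of the other gene desert regions 49.7%.

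In HNF6 and CTCF the members were furthest, in ratio, from other gene desert regions among the motifs present in at least 1%. Most of those other regions were called in a single list, whereas a member needed a peak in 2, so the groups are not alike. HNF6 is a homeodomain and cut-domain factor of pancreatic progenitors. Its motif was in 387 members, or 9.09% (95% Wilson interval 8.26 to 9.99%), against 2.65% for the reversed letters. It was in 4.85% of the 15731 other gene desert regions, 5.02% of gained regions elsewhere, 6.94% of gene desert regions called in all 4 lists, 0 of 315 lost gene desert regions and 3.47% of all merged regions. Because the motif is rich in A and T, GC content was held in bands. At 30 to 35% GC it was in 19.2% of members and 11.8% of other gene desert regions, at 40 to 45% in 8.01% and 4.84%, and at 50 to 55% in 1.93% and 1.50%. Members held it more often than other gene desert regions in every band of 5 points, by least in the band richest in GC. Gene desert regions called in all 4 lists came closer, with 18.4% at 30 to 35% GC, and held it more often than members at 45 to 50% (4.68% against 4.24%) and at 50 to 55% (2.62%). Gained regions elsewhere had 2.45% in that last band. In 4 equal classes of the members by the lower of their fold enrichments, from weak to strong, the HNF6 share was 8.17%, 9.12%, 8.93% and 10.2%.

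CTCF binds insulators and the anchors of chromatin loops. Its consensus was in 99 members, or 2.33% (95% Wilson interval 1.91 to 2.82%), and its reversed letters in 0. The share was 0.801% of other gene desert regions, 1.79% of gene desert regions called in all 4 lists, 1.86% of all merged regions and 4.45% of gained regions elsewhere. Members thus held it more often than other gene desert regions and less often than gained regions elsewhere, a description over regions that share libraries and is not a test. Unlike HNF6, the CTCF consensus followed enrichment, with 0.657% in the weakest of the same 4 classes, 2.07% and 2.63% in the next and 3.95% in the strongest. The interval of gene desert regions called in all 4 lists, 1.26 to 2.55%, overlapped that of the members. At 45 to 50% GC those regions held the consensus more often than members (3.03% against 2.52%), and in every other band less often.

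The motifs of other progenitor factors were less particular to the members. GATA letters, bound by the zinc finger factors GATA4 and GATA6, were in 23.6% of members, 18.3% of other gene desert regions and 16.3% of gained regions elsewhere, but the reversed letters were in 14.4%, 13.1% and 9.69%. FOXA letters, bound by pioneer factors of the endoderm, were in 6.55% of members and their reversed form in 5.78%, while gene desert regions called in all 4 lists had 8.97% and 5.74%. NKX6 letters were in 4.79% of members and reversed in 4.23%, and SOX letters in 3.59% and 2.02%. In other gene desert regions the NKX6 and SOX shares were 3.40% and 3.47%, and in gained regions elsewhere 2.98% and 3.34%. Gene desert regions called in all 4 lists had 4.25% and 3.89%. The HNF1 consensus was in 5 members. AP-1, a stress and growth factor dimer of JUN and FOS proteins, and TEAD, the partner of YAP, had their motifs in 11.9% and 15.0% of members. Both shares were below those of gene desert regions called in all 4 lists, 16.6% for AP-1 and 17.9% for TEAD.

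The 5 sequences below, of 61 bases around the match, carry the CTCF consensus in 5 of the 6 strongest members that hold it. They are shown because CTCF was the motif that followed enrichment. All are given on the plus strand of hg38, with the match in capitals. The match is on the plus strand in RNF144B-ID4 (chr6:18997486-18997546). It is on the minus strand in SPOCK3-ANXA10 (chr4:167622878-167622938), GALR1-SALL3 (chr18:77650950-77651010), LMO7-KCTD12 (chr13:76473708-76473768) and CDH10-CDH9 (chr5:26482939-26482999).
RNF144B-ID4: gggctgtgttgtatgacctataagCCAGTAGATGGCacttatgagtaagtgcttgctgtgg
SPOCK3-ANXA10: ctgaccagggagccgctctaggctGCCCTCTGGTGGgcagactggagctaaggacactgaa
GALR1-SALL3: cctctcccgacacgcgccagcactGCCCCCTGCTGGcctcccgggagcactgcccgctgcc
LMO7-KCTD12: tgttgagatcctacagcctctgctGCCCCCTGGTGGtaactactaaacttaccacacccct
CDH10-CDH9: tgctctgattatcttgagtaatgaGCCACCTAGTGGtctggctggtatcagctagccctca

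The member between RNF144B and ID4, the latter a helix-loop-helix inhibitor, had fold enrichments of 12.8 and 12.7 in replicates 1 and 2. The values were 11.3 and 10.4 between SPOCK3 and ANXA10, 9.85 and 10.9 between GALR1 and SALL3, 9.71 and 11.2 between LMO7 and KCTD12, and 11.8 and 9.22 between CDH10 and CDH9. The member between CDH10 and CDH9 differed most between the lists. All 5 were chosen for a high lower value, so their place above the members' medians follows from the choice.

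The HNF6 letters are shown in the 4 strongest members that hold them, which were chosen after their values were seen. The match is on the minus strand in CLEC14A-SEC23A (chr14:38855693-38855753). It is on the plus strand in KHDRBS2-FKBP1C (chr6:62663413-62663473), OLFM4-PRR20A (chr13:55817370-55817430) and CT83-KLHL13 (chrX:116841495-116841555).
CLEC14A-SEC23A: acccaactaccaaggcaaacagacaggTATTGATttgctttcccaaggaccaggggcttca
KHDRBS2-FKBP1C: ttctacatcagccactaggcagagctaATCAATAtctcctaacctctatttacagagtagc
OLFM4-PRR20A: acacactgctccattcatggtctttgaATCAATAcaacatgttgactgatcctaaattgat
CT83-KLHL13: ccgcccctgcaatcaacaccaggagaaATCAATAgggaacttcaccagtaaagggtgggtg

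Their fold enrichments in replicates 1 and 2 were 12.5 and 13.2 between CLEC14A and SEC23A, 12.4 and 14.5 between KHDRBS2 and FKBP1C, 14.6 and 12.2 between OLFM4 and PRR20A, and 12.9 and 12.2 between CT83 and KLHL13. The first lies in LINC00639, a lncRNA gene.

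Where in a member the motif lay depended on the list. The summit of replicate 2 lay at a higher coordinate than that of replicate 1 in 3432 of 4257 members, by a median of 63 bp (interquartile range 19 to 100 bp). In members with the CTCF consensus, the match was at a median position of −0.5 bp from the replicate 1 summit and of −50.5 bp from that of replicate 2. The median distance, regardless of side, was 19 bp in replicate 1 and 56 bp in replicate 2. In these members the replicate 1 summits thus showed no net offset from the match, and those of replicate 2 lay mostly to one side of it. Around replicate 1 summits, 114 members held the CTCF consensus within 100 bp (2.68%) and 380 the HNF6 motif (8.93%). Around those of replicate 2 the numbers were 88 (2.07%) and 387 (9.09%). Within 50 bp on either side of the replicate 1 summit, the HNF6 motif was in 2.77% and 3.41% of members per 50 bp, against 1.29% and 0.916% at 200 to 250 bp on either side. The HNF6 matches were thus also densest at the summit, over a higher level at its flanks than that of CTCF. MACS2 extends each read to a fixed length and lists no shorter peak. For I-BET151 that shortest peak was 200 bp in replicate 1 and 256 bp in replicate 2. The part of that difference in the displacement was not tested.

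**Figure D4:**
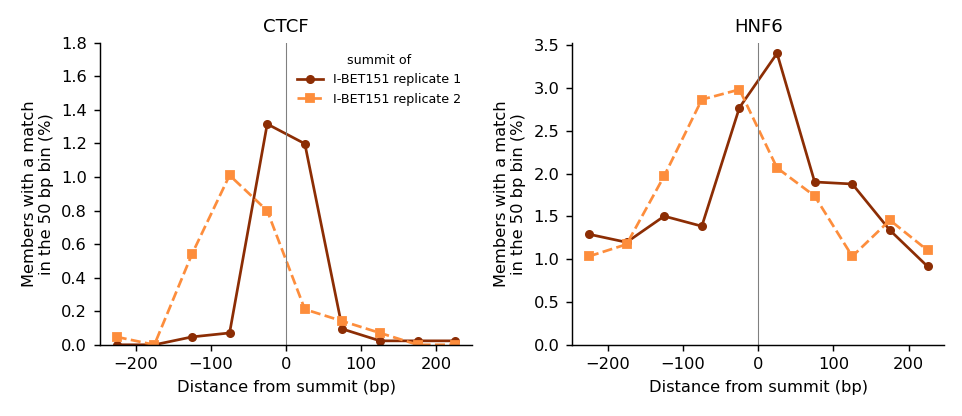
Percent of the 4257 members with a CTCF consensus (left) or HNF6 motif (right) in each bin of 50 bp (y) by distance from the summit in bp (x), positive towards higher coordinates. Solid lines with circles use the I-BET151 replicate 1 summit and dashed lines with squares that of replicate 2. CTCF peaks at 1.32% just before the replicate 1 summit and at 1.01% between 100 and 50 bp before that of replicate 2.

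The members were spread over most gene deserts. Of 919 gaps between neighbouring protein-coding genes that held gene desert sequence, 662 held at least 1 member, 132 held exactly 1 and 140 held at least 10. The last held 2377 members (55.8%). The density was 6.60 members per Mb of gene desert, beside 31.0 gene desert regions of any kind. In 485 of the gaps with members a region was also called in all 4 lists, and in 175 a region was lost. In 41 gaps with members no region was called with DMSO.

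The 8 gaps with most members, 278 together, were flanked by genes for adhesion molecules, developmental regulators and others. The gap between PCDH7, a protocadherin, and ARAP2 on chromosome 4 held 46 members, or 32.2% of its 143 gene desert regions in 4.78 Mb. The gap between ZEB2, a repressor of epithelial genes, and the activin receptor gene ACVR2A on chromosome 2 held 37 of 131, the highest density of the 8 at 13.1 per Mb. NUDT12 and the ephrin gene EFNA5 flanked 35 of 115 on chromosome 5. These 3 gaps held 2 lost regions in all, both beside ZEB2. CELF4 and PIK3C3 flanked 34 of 146 on chromosome 18, the cadherin genes CDH9 and CDH6 33 of 121 on chromosome 5, and SPRY2 and SLITRK1 32 of 130 on chromosome 13. IGFBP7 and ADGRL3 flanked 31 of 105, and AGA and TENM3, a teneurin, 30 of 146, both on chromosome 4. Among gaps with at least 10 members, the gained share of gene desert regions ran from 11.8% to 48.0%. Its median was 26.4%, beside 21.3% over all gene desert regions, and a high share follows in part from choosing gaps with many members. The highest share of these gaps was 24 of 50 between CDH10 and CDH9, next to the gap between CDH9 and CDH6.

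The spacing of the members was not compared with that of other gene desert regions or of randomly placed ones. The median distance to the nearest other member was 38555 bp, and 2516 members (59.1%) had another within 50 kb. Linking members at most 50 kb apart gave 353 strings of at least 3, with 1268 members. Strings of 8 lay between ROBO1 and GBE1, between NAALADL2 and TBL1XR1, and between MDFIC and TFEC (chr7:115632642-115748544). The last held no region called with DMSO. The nearest region called with DMSO was a median of 27993 bp away, and 969 members (22.8%) had one within 10 kb.

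Chromosomes differed in the gained share of their gene desert regions. It was 25.3% on chromosome 3 (370 members), 24.8% on chromosome 4 (468) and 33.4% on X (120), and 9.74% on chromosome 17 (19) and 9.76% on chromosome 22 (12). Across the 24 chromosomes, which share the libraries, the gained share fell with the GC content of the gene desert sequence. The Spearman rho was −0.844, given as a description. By density X was low, at 3.49 members per Mb of gene desert against 6.60 over all gene deserts. Chromosomes 3 and 4 were above that value. The high share of X came from only 359 gene desert regions in 34.4 Mb.

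Flanking genes were grouped by 3 lists. Genes of pancreas development flanked 27 gaps with 126 members, and the gained share of gene desert regions was 17.0% there against 21.5% in other gaps. These gaps made up 2.43% of gene desert sequence, 2.96% of members and 5.08% of gene desert regions called in all 4 lists. The most members were beside NR2F2 (26 of 133 gene desert regions) and NR2F1 (18 of 87), orphan nuclear receptors, followed by NR5A2 (13 of 46), which drives acinar genes, and TBX3 (12 of 65). SOX9 had 8 of 77, and NKX6-1 and ONECUT1, which encode factors of pancreatic progenitors, 6 of 26 and 6 of 38. The strongest of these members lay between ARRDC3 and NR2F1 (chr5:92518331-92518754), with fold enrichments of 13.0 and 15.2. Next were one between HNF4G and ZFHX4 (chr8:76367844-76368328) with 10.9 and 11.9 and the CTCF consensus, one between ISL1 and PELO (chr5:52150541-52151033) with 10.6 and 11.7, a second beside NR2F1 (chr5:91977592-91978038) with 9.28 and 10.7, and one in the lncRNA gene CASC15 between SOX4 and PRL (chr6:22036226-22036707) with 9.21 and 13.3. All 5 were above the members' medians in both lists, which follows from choosing the strongest.

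Genes of developmental transcription factor families flanked 334 members, with a gained share of 18.5% against 21.6% in other gaps. Adhesion and synapse genes, such as cadherins, protocadherins and teneurins, flanked 896 members (21.0% of members in 18.5% of the sequence). Their gained share was 24.9% against 20.5% in other gaps. The gained share was thus lower beside both lists of regulators and higher beside adhesion genes, as a description. Those lists of regulators share genes, among them NR2F2, TBX3 and SOX9. Members beside shared genes are counted under both, so the lower shares are not separate observations. Members per Mb of gene desert were above those of other gaps for all 3 lists. They were 8.02 against 6.56 for pancreas genes, 7.02 against 6.56 for developmental transcription factors, and 7.51 against 6.39 for adhesion genes. The 87 gaps beside adhesion genes held 119 Mb of gene desert, and the 87 beside developmental transcription factors 47.6 Mb.

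Of the members, 1556 (36.6%) lay in lncRNA genes, against 34.5% of other gene desert regions and 15.9% of gained regions elsewhere. Gene desert regions called in all 4 lists had 36.1%, close to the share of the members. Within 1 kb of a lncRNA start lay 86 members (2.02%), beside 1.74% of other gene desert regions, 3.23% of gene desert regions called in all 4 lists and 3.42% of gained regions elsewhere.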

How the data were processed

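ATAC-seq was analysed in 4 libraries of MEL1-derived pancreatic progenitors, and groups were taken from the labels. The authors used Bowtie2 (v2.2.5) for alignment to hg38, filtered out duplicate and mitochondrial reads, and ran MACS2 (v2.1.2) on each library alone. The deposited lists give for each peak a score (not used), a fold enrichment at the summit (a ratio), and its p-value and q-value as −log10. They reach to q = 0.05, whereas the study's methods state a −log10 p of at least 5. The methods also give a read extension of 200 bp, but the shortest peak was 233 bp in DMSO replicate 2 and 256 bp in I-BET151 replicate 2, so a missing peak may not mean the same in each list. The members and gene lists were chosen with earlier results of these data known.

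Peaks of the 22 autosomes, X and Y were merged at 1 bp with Python 3.11.15, numpy 2.4.6, pandas 2.3.3 and scipy 1.17.1. Gene bodies and starts came from 20033 protein-coding entries of GENCODE release 44. The pileup was solved from fold enrichment and the Poisson p-value and fitted, within 0.001 of −log10 p, in 100% of peaks. Reads were derived from the genome-wide background at a genome size of 2700 Mb, and scale with it. Sequence was read with pysam 0.24.0, and figures were drawn with matplotlib 3.10.9. GC and motifs were taken from windows of 201 bp. Exact permutation tests (two-sided) on values per library cannot go below p = 0.333 with 2 against 2 and, since the lists compared hold the members, are not used as support. Regions named were the 10 strongest, the 6 strongest with the CTCF consensus, the 3 farthest, the 3 on either side of the distance limit, the 8 gaps with most members and the 5 strongest beside pancreas genes. The sequences with the HNF6 motif were chosen after their values were seen. Intervals cover counting error only. The functions for pileups, merging, gene deserts and motif search were tested on simulated data, and the later steps were not. Alternatives were stricter thresholds, equal list lengths, each library left out, other distances, windows, overlap and gene sets, and replicate pairs. Repeats were not masked. A few regions that these rules select are not reported here.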

Additional observations from a re-analysis of the deposited data

How the results depend on the processing

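The 3 differences between libraries kept their sign in every alternative run for them (11 for the peak share, 13 for CTCF, 12 for GC) and could not pass a threshold at 2 against 2. Among these alternatives, the means over replicate pairs, as numbered or crossed, equal the main difference by construction and could not change sign. The size of the 3 differences did not hold. The peak share difference was 1.16 points with equal numbers of peaks, against 4.14. The GC difference was −0.746 at a −log10 p of at least 10, against −3.23, and −1.49 without DMSO replicate 1 and −4.98 without DMSO replicate 2. The CTCF difference was 1.25 at that threshold and 1.27 with equal numbers, against 0.631, and 0.289 without I-BET151 replicate 1 and 0.974 without I-BET151 replicate 2. Groups overlapped for GC at that threshold and for CTCF in a window of 50 bp (both p = 0.667, exact permutation test). The counts and shares fixed by the rule moved too. At a −log10 p of at least 10 there were 1985 members (24.5% of gene desert regions, 3.27% with the CTCF consensus), and at least 5 gave 22.6%. With equal numbers of peaks there were 796 members (12.0%, 2.89% with CTCF). A limit of 100 kb gave 7032 members (19.6%, median GC 42.8%) and one of 500 kb 2151 (22.7%). Counting lncRNA genes as genes left 740. An overlap of at least 50% gave a gained share of 22.6%. The CTCF share was 1.64% in a motif window of 50 bp on either side, and median GC was 39.7% in a window of 250 bp. Leaving out 1 library gave 4414 to 9609 members, a gained share of 22.4 to 56.6% and a CTCF share of 1.30 to 2.36%. Without I-BET151 replicate 1 there were 9609 members and without I-BET151 replicate 2 7551, because 1 list then sufficed.

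The replicate block, as the mean of differences within same-numbered libraries, gave 4.14 points for the peak share, 0.631 for CTCF and −3.23 for GC. These are by construction the same as without it, and 2 pairs cannot go below p = 0.5 in an exact test. Deviations of same-numbered libraries over 25627 regions called in all 4 lists had a correlation of −0.168, so the numbers were not taken to pair them. Crossed numbers, added after seeing the data, leave the means unchanged as well. They gave 0 calls of 3, as did the unpaired tests, and neither could have given any with so few libraries. Using the summit of I-BET151 replicate 1 or 2 for all members, also added then, gave CTCF shares of 2.68% and 2.07%. Pileups of 5 to 67 reads limit what can be said of any single member, and the shallower I-BET151 libraries limit which members could be called.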

Other observations

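Members were found in 789 lncRNA genes, and the ones named here were chosen after their values were seen. SGO1-AS1, a transcript of 972 kb on chromosome 3, held 13 members among 34 gene desert regions. LINC02240 on chromosome 5 held 11 of 38, and MIR99AHG, the host gene of a microRNA cluster on chromosome 21, held 11 of 42. CFAP20DC-DT on chromosome 3 held 10 of 35. Among genes without a name, ENSG00000286481 on chromosome 2 held the most members, 14 of 62, and ENSG00000266602 on chromosome 18 held 11 of 22. Peak lists do not say whether any of these genes was transcribed.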
